A study of Mus musculus with 4 samples.

Results

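The initiation and elongation factors are the proteins that load ribosomes onto mRNA, find the start codon and move the ribosome along the message. They were taken as every symbol of the deposited gene list that begins with *Eif1* to *Eif6*, *Eef1* or *Eef2*, without the symbols of pseudogenes, which gave 65 of 18695 genes. The rule used names only and no measured value. Single bone marrow cells of mice were measured in 4 libraries, 1 for each of 2 genotypes and 2 sorts. All mice carried floxed *Tet2* alleles (*Tet2* fl/fl). The *Tet2* KO mice also carried Mx1-Cre, a Cre recombinase that interferon or its inducer pI:pC switches on, and the controls were Mx1-Cre-negative littermates. Mice of both genotypes were given 4 doses of 12.5 µg/g pI:pC into the peritoneum, so every library came from an animal that had received an interferon inducer. Mice in the study were male and female and 8 to 12 weeks old. The GMP sort (Lin- cKit+ Sca1- CD34+ CD16/32+) holds granulocyte-monocyte progenitors, and the Lin-/CD11b+ sort holds lineage-negative progenitors and CD11b+ myeloid cells. 1 mouse per genotype gave the cells of both sorts, so a difference between genotypes cannot be told apart from a difference between these mice or preparations, and there was no replicate check and no test.

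In initiation, eIF2 brings the initiator tRNA to the small ribosomal subunit, eIF1, eIF1A and eIF5 guide the search for the start codon, eIF3 holds the complex together, the eIF4 group binds the cap and unwinds the leader, and eIF5B joins the large subunit. In elongation, eEF1A delivers aminoacyl-tRNA, the eEF1B subunits recharge it with GTP, and eEF2 moves the ribosome by a codon. The cell sets the rate through eIF2 kinases, which block eIF2B, through 4E-BP proteins, which hold eIF4E, and through eEF2 kinase, which blocks eEF2. Many of the elongation factors, like the ribosomal proteins, are known for mRNAs with a terminal oligopyrimidine start, a class that mTOR signalling controls at translation.

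The libraries held 8969 cells and between 22681380 and 42561110 UMIs (a unique molecular identifier, UMI, marks 1 captured RNA molecule), with medians of 10417 to 18713 UMIs per cell. Of these cells, 6283 (70.1%) fell into gates set on marker genes, and 37 cell barcodes were found in 2 libraries. The gates are ranges of marker counts and not sharp types: 671 of 1181 cells in the neutro-biased progenitor gate had exactly 1 UMI of *Cebpe*, 454 of 2248 in the mono-biased gate exactly 2 UMIs of monocytic markers, and 329 of 746 in the early progenitor gate exactly 1 UMI of *Cd34*, *Hlf* or *Procr*. In 24 checks of markers not used to set a gate, 21 had the marker highest in the type it was checked for. *Ms4a6c* and *Ccr2*, the only markers checked for the mono-biased gate, were higher in monocytes. *Fcnb*, checked for the neutro-biased gate, was higher in neutrophils. The 3′ UMIs of *Tet2* do not check its deletion, since the level in the KO libraries (17.0 and 20.7 CPM, the counts scaled to the same total in each library or type) was not below that in the controls (13.4 CPM or less). A UMI stands for a molecule and not a stretch of RNA, so levels in CPM can be set side by side between genes without a length. Every interval given here is an exact 95% interval that covers counting error only.

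The factors were among the abundant mRNAs of all progenitors. Over whole libraries their sum was 19935 CPM in the GMP control library, 17962 CPM in the GMP KO library, 15334 CPM in the Lin-/CD11b+ control library and 15275 CPM in the Lin-/CD11b+ KO library, that is, between 1 and 2 in every 100 molecules. A few members carried most of it. The 10 with the highest level in the controls (*Eef1a1*, *Eif1*, *Eif5a*, *Eef1b2*, *Eef1g*, *Eif4a1*, *Eef2*, *Eif3k*, *Eif3f* and *Eif3h*) held 67.3% of all UMIs of the members. *Eef1a1*, the tRNA-delivering factor of these cells, alone held 23.3%, *Eif5a* 7.16% and *Eif1* 7.15%. At the other end, *Eif4ebp3* had 1 UMI in all cells, *Eef1akmt3* 48 and *Eif5a2*, the second form of eIF5A, 109. Of the 65 members, 52 reached 20 UMIs over both libraries in all 12 comparisons between genotypes. *Eif2s3y* and *Eef1a2*, the alternative forms of *Eif2s3x* and *Eef1a1*, have no entry in the gene list used here.

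Across cell types, the summed level was highest in early progenitors, lower in every progenitor and basophil gate, and lowest in neutrophils and plasma cells. In the Lin-/CD11b+ control library it was 20273 CPM in early progenitors, 17326 CPM in neutro-biased progenitors, 17246 CPM in mono-biased progenitors, 16908 CPM in the plasmacytoid dendritic (DC) lineage, 15913 CPM in the basophil lineage, 14894 CPM in monocytes, 5851 CPM in neutrophils and 5290 CPM in plasma cells. The KO library of this sort gave 18636, 16407, 16712, 16540, 15133, 14529, 7653 and 5711 CPM in the same types. In both libraries the neutrophils and plasma cells stood far below the other 6 types, whereas the neutro-biased, mono-biased and plasmacytoid values lay close together and changed places between the genotypes. In the GMP sort, early progenitors were again highest in both genotypes (22485 CPM in the control and 20124 CPM in the KO).

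**Figure D1:**
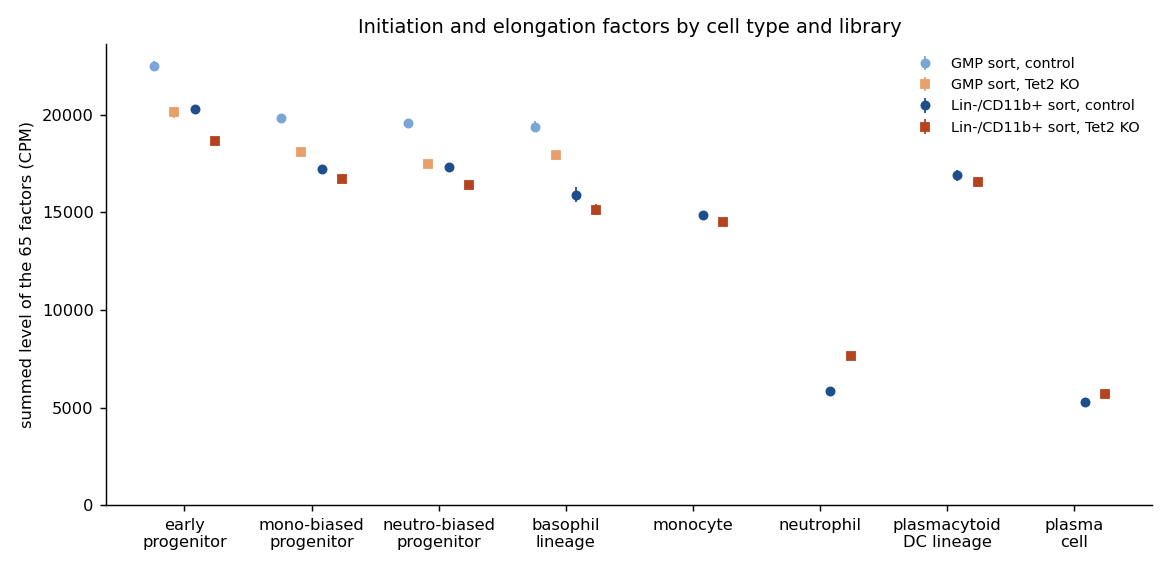
Summed CPM of the 65 factors (vertical axis) in 8 cell types (horizontal axis) in each of the 4 libraries; points are libraries and bars exact 95% Poisson intervals, often smaller than the point. Early progenitors sit between 18636 and 22485 CPM, neutrophils and plasma cells between 5290 and 7653 CPM, and among the progenitor types each KO point lies below the control point of its sort.

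Relative to early progenitors of the Lin-/CD11b+ control library, the sum was 3.47-fold lower in neutrophils (log2 -1.79) and 3.83-fold lower in plasma cells (log2 -1.94), against 1.36-fold in monocytes (log2 -0.44, interval -0.47 to -0.42). In neutrophils 51 of 59 members with enough UMIs were lower by more than 1.5-fold on the CPM + 1 scale and 0 higher, and in plasma cells 59 of 60 were lower and 1 higher. The background was large as well, since 75.1% of all genes were past this fold in either direction in neutrophils and 89.9% in plasma cells. The median member differed from early progenitors by -1.52 in neutrophils and -1.97 in plasma cells on the log2 scale, beside -0.95 and -1.67 for all genes. A few products filled these cells. The alarmins *S100a8* and *S100a9* took 31.2% of all UMIs in control neutrophils, and immunoglobulin genes with *Jchain* took 68.4% in control plasma cells. With the 50 most abundant other genes left out of the total, the sum was lower by 0.94 on the log2 scale in neutrophils, lower by 0.29 in plasma cells and lower by 0.50 in monocytes. Fewer molecules of the factors per cell and more of other molecules cannot be told apart on a scale of shares.

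In the other types the differences were smaller. Of the members with enough UMIs, 17 of 61 were lower by more than 1.5-fold in monocytes and 4 higher (background 47.4% of genes), 15 of 59 lower and 2 higher in the basophil lineage (43.6%), and 10 of 59 lower and 4 higher in the plasmacytoid lineage (42.7%). In mono-biased progenitors 4 of 62 were lower and 1 higher (33.1%), and in neutro-biased progenitors 4 of 61 were lower and 0 higher (33.9%). In all 5 types these shares were under the background.

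The makeup of the pool also differed between types, but not in step with its size. The eEF1 group was taken by symbol (*Eef1a1*, *Eef1b2*, *Eef1d*, *Eef1e1* and *Eef1g*). It held 44.8% of the members' UMIs in early progenitors of the Lin-/CD11b+ control library, 35.7% in monocytes, 34.1% in plasma cells and 21.1% in neutrophils. Plasma cells thus had the smallest pool but an eEF1 share near that of monocytes. The group called scanning factors here was *Eif1*, *Eif1a*, *Eif1ad*, *Eif1ax*, *Eif1b*, *Eif5* and *Eif5b*. Its share took the opposite course, with 10.6% in early progenitors, 14.9% in monocytes, 22.2% in plasma cells and 26.0% in neutrophils. *Eif1* dominates this group, with 1298 of 2147 CPM in early progenitors, 1136 of 1520 CPM in neutrophils and 856 of 1175 CPM in plasma cells. The group's level was thus lower in neutrophils and plasma cells than in early progenitors, while its share was higher. The eIF3 subunits varied less, from 18.9% in early progenitors to 22.1% in neutrophils. In the KO library eEF1 held 43.5% in early progenitors and 25.6% in neutrophils, again the highest and the lowest. The scanning factors held 11.1% in early progenitors, 20.9% in neutrophils and 21.8% in plasma cells there, so the top 2 types changed places.

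**Figure D2:**
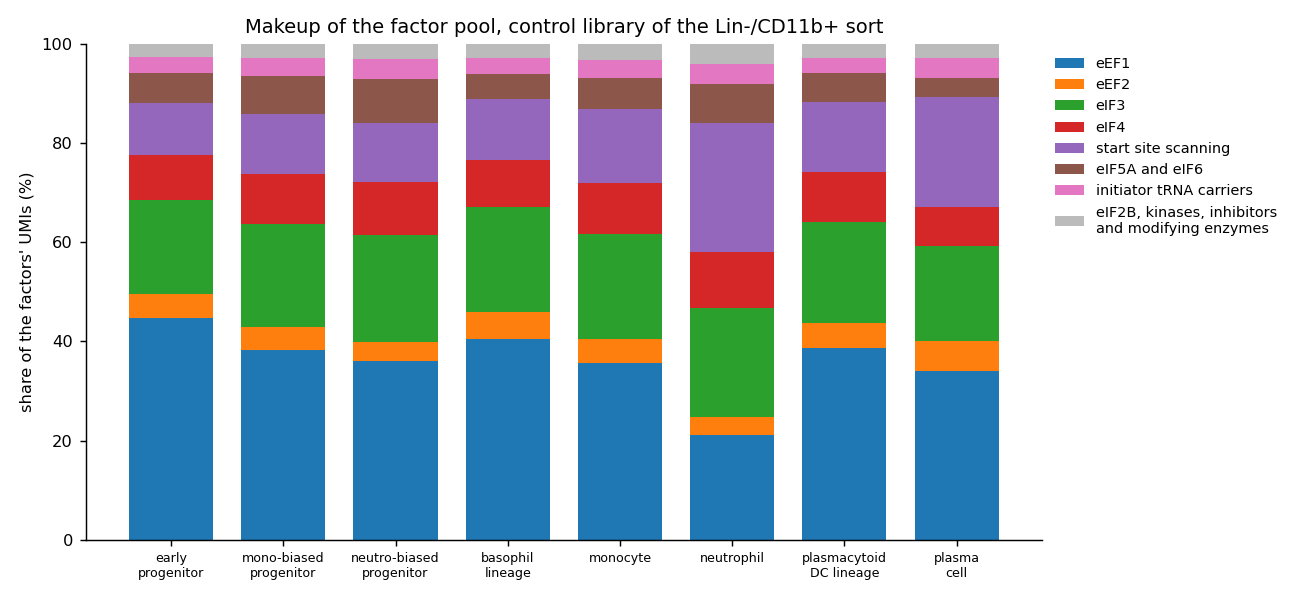
Share of the factors' UMIs (vertical axis, percent) held by each functional group in 8 cell types (horizontal axis) of the Lin-/CD11b+ control library; each bar adds up to all UMIs of the 65 members. The eEF1 share goes from 44.8% in early progenitors to 21.1% in neutrophils, while the share of start site scanning factors goes from 10.6% to 26.0%. Eif1 alone holds 1136 of the 1520 CPM of the scanning factors in neutrophils.

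*Eif1*, the gatekeeper of start codon choice, was the most even of the 14 members with at least 100 UMIs in every control type. Evenness was the ratio of highest to lowest level over the control types of both sorts together. Its level in the Lin-/CD11b+ control library was 1298 CPM in early progenitors, 1274 CPM in mono-biased and 1161 CPM in neutro-biased progenitors, 1377 CPM in the basophil lineage, 1569 CPM in monocytes, 1136 CPM in neutrophils, 1620 CPM in the plasmacytoid lineage and 856 CPM in plasma cells. The highest was 1.89-fold above the lowest. Next came *Eif2s2*, the beta subunit of eIF2 (2.88-fold), *Eef1d* (3.83-fold), *Eif3f* (3.98-fold) and *Eif3h* (4.03-fold). The widest range was that of *Eef1g*, the gamma subunit of eEF1B, with 1430 CPM in early progenitors, 883 CPM in mono-biased and 1009 CPM in neutro-biased progenitors, 748 CPM in the basophil lineage, 653 CPM in the plasmacytoid lineage, 392 CPM in monocytes, 247 CPM in plasma cells and 114 CPM in neutrophils. Over the control types of both sorts together, *Eef1g* spanned 13.2-fold from highest to lowest. It stood ahead of the helicase *Eif4a1* (9.35-fold), *Eif5a* (9.19-fold), *Eef1a1* (8.79-fold) and *Eef1b2* (7.86-fold). *Eef1g* and *Eef1b2*, which sit in the same exchange complex, differed in monocytes: *Eef1b2* still had 773 CPM there, of 1288 CPM in early progenitors, whereas *Eef1g* was lower than in early progenitors by a log2 ratio of -1.87 (interval -1.98 to -1.76).

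*Eef2k*, the kinase that switches eEF2 off, was measured at 71.1 CPM in the plasmacytoid lineage, 67.6 CPM in the basophil lineage, 43.1 CPM in early progenitors, 27.9 CPM in neutro-biased progenitors, 13.4 CPM in mono-biased progenitors, 5.17 CPM in neutrophils, 4.97 CPM in plasma cells and 4.29 CPM in monocytes of the Lin-/CD11b+ control library. The KO library of this sort gave 47.3, 36.5, 50.5, 33.4, 17.4, 12.1, 6.66 and 4.61 CPM in the same types. In both genotypes the monocytes, neutrophils and plasma cells were at the bottom and the order among the top 3 types differed. Against early progenitors of the control library the log2 ratio was -3.33 in monocytes (interval -4.50 to -2.34) and 0.72 in the plasmacytoid lineage (0.22 to 1.21). With each cell thinned to 5000 UMIs, 31.7% of control plasmacytoid cells and 3.06% of control monocytes held a UMI of *Eef2k*.

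*Eif4ebp1* and *Eif4ebp2* encode 4E-BP proteins, which keep eIF4E from the cap complex. In the Lin-/CD11b+ control library *Eif4ebp1* had 143 CPM in monocytes, 121 CPM in neutro-biased progenitors, 112 CPM in early progenitors, 106 CPM in mono-biased progenitors, 83.4 CPM in neutrophils, 63.3 CPM in the basophil lineage, 34.0 CPM in plasma cells and 27.5 CPM in the plasmacytoid lineage. The last was below early progenitors by a log2 ratio of -2.03 (interval -2.73 to -1.39), and the KO library also had its lowest values in the plasmacytoid lineage (30.6 CPM) and plasma cells (33.8 CPM). *Eif4ebp2* showed no such gap: it had 62.4 CPM in the plasmacytoid lineage and 40.8 CPM in early progenitors of the control library, a log2 ratio of 0.61 (0.08 to 1.12). Of the cap-binding proteins, *Eif4e* was highest in neutro-biased progenitors (126 CPM) and early progenitors (125 CPM) and had 71.5 CPM in monocytes, *Eif4e2* lay between 28.2 CPM in plasma cells and 96.1 CPM in the plasmacytoid lineage, and *Eif4e3*, another form of eIF4E, was highest in the plasmacytoid lineage (67.4 CPM) and monocytes (51.0 CPM) and had 14.2 CPM in neutro-biased progenitors. The alternative helicase *Eif4a2* lay between 54.3 CPM in neutrophils and 111 CPM in early progenitors, where *Eif4a1* had 871 CPM. Among the scaffolds, *Eif4g2* had 163 CPM, *Eif4g1* 67.3 CPM and *Eif4g3* 33.2 CPM in early progenitors. *Eif1b*, the second form of eIF1, lay between 28.6 CPM in plasma cells and 126 CPM in the plasmacytoid lineage.

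The 4 eIF2 kinases together held under 1% of the members' UMIs in every type. *Eif2ak1*, the heme-regulated kinase, had 14.4 CPM in early progenitors, 27.7 CPM in monocytes and 32.4 CPM in the plasmacytoid lineage of the Lin-/CD11b+ control library, which gave log2 ratios of 0.95 (interval 0.30 to 1.62) and 1.18 (0.37 to 1.97). *Eif2ak3*, the kinase of endoplasmic reticulum stress (PERK), had 2.24 CPM in early progenitors and 7.87 CPM in plasma cells. *Eif2ak3* was the member that was higher in control plasma cells than in early progenitors by more than 1.5-fold, with a log2 ratio of 1.81 (0.34 to 3.59). *Eif2ak2* (PKR), the RNA-activated kinase and an interferon-stimulated gene, had 23.7 CPM in the plasmacytoid lineage, 22.4 CPM in monocytes and 3.73 CPM in plasma cells. *Eif2ak4* (GCN2), the amino acid sensor, stayed at or under 6.54 CPM in the types of this library.

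**Figure D3:**
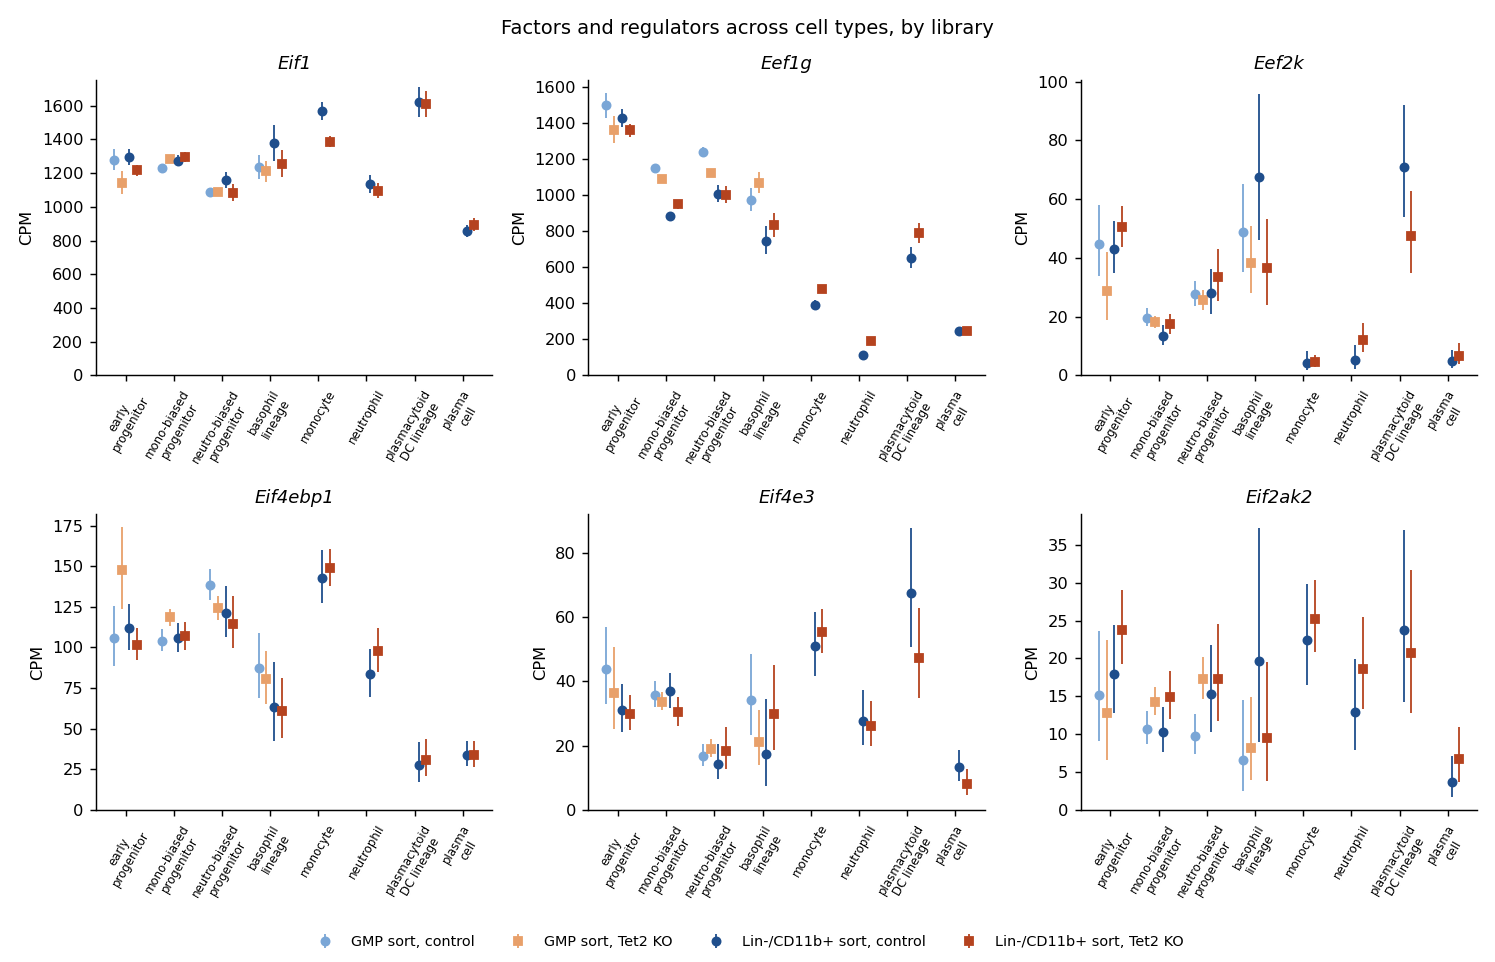
CPM (vertical axes, each from 0) of Eif1, Eef1g, Eef2k, Eif4ebp1, Eif4e3 and Eif2ak2 in 8 cell types (horizontal axes) in the 4 libraries; points are libraries and bars exact 95% Poisson intervals. Eif1 stays between 856 and 1620 CPM in the Lin-/CD11b+ control library while Eef1g goes from 1430 to 114 CPM, and Eef2k is lowest in monocytes, neutrophils and plasma cells of both genotypes.

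Over the 25 combinations of library and type with at least 50 cells, the genes outside the list with the pattern most like the summed members were *Rpsa* (Pearson r of log2 CPM + 1, 0.995), *Rpl7a* (0.994), *Rpl4* (0.993), *Rpl28* (0.991) and *Rpl3* (0.991), all ribosomal proteins, of 7928 candidates. These combinations share libraries, mice and the same total, so the correlations are a description. Within the list *Eef1b2* (0.993) and *Eif2a* (0.985) were most like the sum and *Eef1akmt3* (-0.718) and *Eif2ak3* (-0.381) least.

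Between the genotypes, the summed level was lower in the *Tet2* KO library in all 4 types of the GMP sort. The control and KO values were 22485 and 20124 CPM in early progenitors, 19831 and 18090 CPM in mono-biased progenitors, 19583 and 17503 CPM in neutro-biased progenitors and 19396 and 17946 CPM in the basophil lineage. The log2 ratios of KO over control were -0.16 (interval -0.19 to -0.13), -0.13 (-0.14 to -0.12), -0.16 (-0.17 to -0.15) and -0.11 (-0.14 to -0.08). The same 4 types of the Lin-/CD11b+ sort gave smaller differences of the same direction: early progenitors had -0.12 (-0.14 to -0.10), mono-biased progenitors -0.05 (-0.06 to -0.03), neutro-biased progenitors -0.08 (-0.10 to -0.06) and the basophil lineage -0.07 (-0.12 to -0.03). Monocytes (-0.04, interval -0.06 to -0.02) and the plasmacytoid lineage (-0.03, -0.06 to 0.00) were close to 0. Neutrophils (0.39, 0.35 to 0.42) and plasma cells (0.11, 0.07 to 0.15) went the other way. The direction in plasma cells turned with TMM factors (-0.051) and with the 50 most abundant other genes left out of the total (-0.093). Markers of neutrophils moved beside these sums. *S100a8* and *S100a9* together had 19.1 CPM in the control and 214 CPM in the KO library in mono-biased progenitors of the GMP sort and 360 and 1527 CPM in neutro-biased ones, but 19.1 and 21.4 CPM in early progenitors and 194 and 153 CPM in the basophil lineage. In the Lin-/CD11b+ sort they had 227 and 892 CPM in mono-biased progenitors, 1135 and 2524 CPM in neutro-biased progenitors and 424 and 2874 CPM in monocytes. Their sum was 209 and 241 CPM in early progenitors of that sort and 155 and 997 CPM in plasma cells. In the plasmacytoid gate the primary granule genes *Mpo*, *Elane*, *Prtn3* and *Ctsg*, which mark neutrophil precursors, had 363 CPM in the control and 1185 CPM in the KO library. The part of these markers in the sums was not tested.

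*Eef1a1* made up a large part of the lower sum in each type of the GMP sort, most fully in mono-biased progenitors and the basophil lineage. Without it, the log2 ratio of the sum in the GMP sort was -0.01 in mono-biased progenitors, -0.06 in early progenitors, -0.10 in neutro-biased progenitors and -0.00 in the basophil lineage, and in the Lin-/CD11b+ sort it was 0.03, -0.08, -0.08 and -0.00. The median member stood near the median of all genes in each of these types. It was -0.03 in early progenitors, 0.07 in mono-biased progenitors, -0.09 in neutro-biased progenitors and -0.01 in the basophil lineage of the GMP sort, beside -0.03, -0.02, -0.05 and 0.01 for all genes. Few members differed by more than 1.5-fold. In the GMP sort these were *Eef2k* in early progenitors (1 of 59, lower, background 16.1% of genes), none of 62 in mono-biased progenitors (4.53%), *Eif2ak2* in neutro-biased progenitors (1 of 62, higher, 7.04%) and *Eif4e3* in the basophil lineage (1 of 58, lower, 18.2%). In the Lin-/CD11b+ sort there were 2 of 61 in early progenitors (12.1%), 0 of 62 in mono-biased progenitors (7.83%), 3 of 61 in neutro-biased progenitors (14.2%), 8 of 55 in the basophil lineage (25%), 2 of 62 in monocytes (14%), 4 of 58 in the plasmacytoid lineage (16.8%) and 8 of 60 in plasma cells (22%). The share of members past the fold was thus below the background in each of these 11 comparisons. Members outside 1.5-fold in these types had between 2 and 155 UMIs in a library, whereas abundant members such as *Eef1a1* stayed within the fold.

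**Figure D4:**
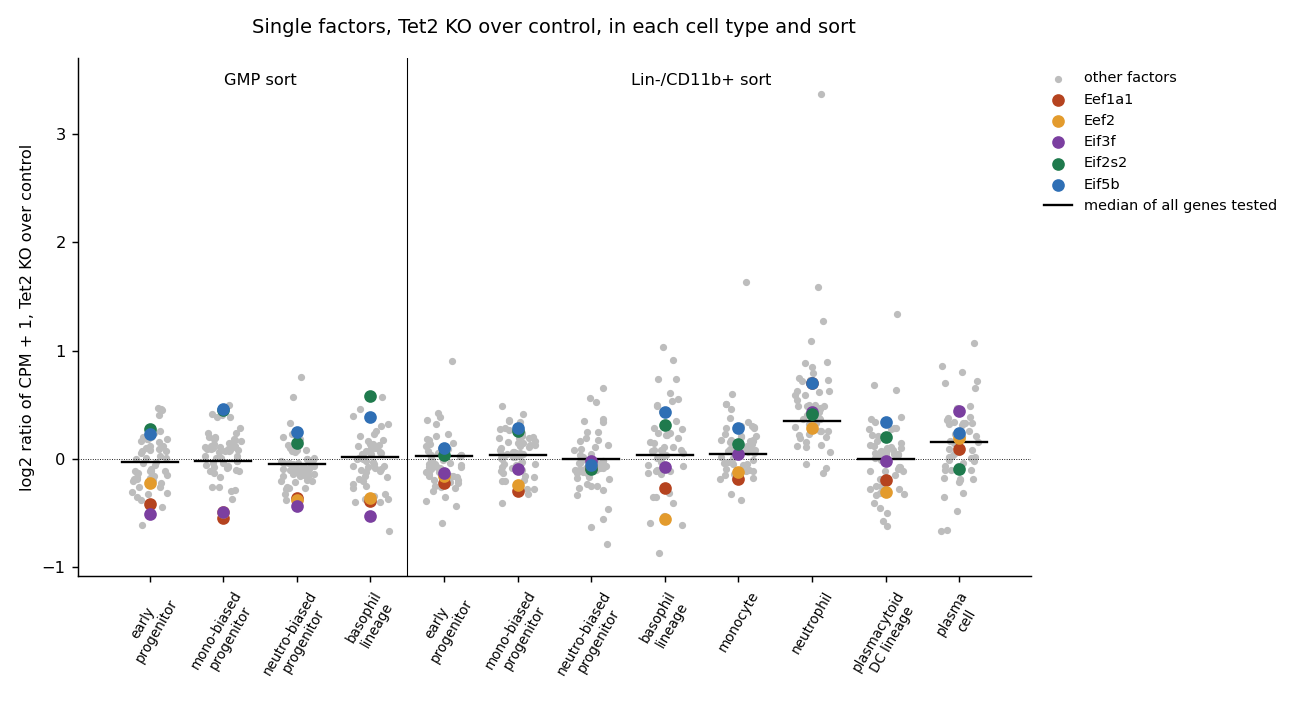
Log2 ratio of CPM + 1, Tet2 KO over control (vertical axis), for each member with at least 20 UMIs in the 12 comparisons (horizontal axis); each point is 1 gene, named genes are coloured and black lines give the median of all genes tested. Eef1a1, Eef2 and Eif3f lie below 0 and Eif2s2 and Eif5b above 0 in the 4 GMP comparisons, and the highest point of the neutrophils is Eif2b3, which had 20 UMIs in the KO and 0 in the control library.

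*Eef1a1* (chromosome 9, 78478453 to 78481724, RefSeq GRCm38.p6) was lower in the KO library in 10 of 12 comparisons. In the GMP sort its control and KO levels were 6912 and 5186 CPM in early progenitors, 5369 and 3682 CPM in mono-biased progenitors, 4778 and 3709 CPM in neutro-biased progenitors and 5990 and 4567 CPM in the basophil lineage. In the Lin-/CD11b+ sort they were 5800 and 4962, 4184 and 3393, 3684 and 3467, and 4365 and 3614 CPM in these types. The GMP control library was highest in each of the 4 types, and the KO library of each sort was below the control of that sort. The GMP log2 ratios were -0.41 (interval -0.47 to -0.36), -0.54 (-0.56 to -0.53), -0.37 (-0.39 to -0.34) and -0.39 (-0.45 to -0.34), and the Lin-/CD11b+ ratios -0.23 (-0.26 to -0.19), -0.30 (-0.33 to -0.27), -0.09 (-0.14 to -0.04) and -0.27 (-0.36 to -0.19). The GMP KO level of mono-biased progenitors was below the Lin-/CD11b+ control level and above the Lin-/CD11b+ KO level, so the sorts differed as well as the genotypes. The ratio in monocytes was -0.19 (-0.23 to -0.15) and in the plasmacytoid lineage -0.20 (-0.26 to -0.13).

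*Eef2*, which moves the ribosome along, had the same course. In mono-biased progenitors it had 992 CPM in the control and 703 CPM in the KO library of the GMP sort, and 800 and 677 CPM in the Lin-/CD11b+ sort. The log2 ratios in early progenitors, mono-biased progenitors, neutro-biased progenitors and the basophil lineage were -0.22, -0.50, -0.38 and -0.37 in the GMP sort, and -0.16, -0.24, -0.07 and -0.56 in the Lin-/CD11b+ sort. All 8 were below 0. *Eef1b2* had ratios of -0.18, -0.26, -0.21 and -0.19 in the GMP sort, whereas the other large eEF1B subunit, *Eef1g*, had 0.11 in mono-biased progenitors of the Lin-/CD11b+ sort and -0.08 in those of the GMP sort. The 10 members with a terminal oligopyrimidine start by textbook knowledge had a median log2 ratio of -0.18 in early, -0.21 in mono-biased and -0.17 in neutro-biased progenitors and -0.11 in the basophil lineage of the GMP sort, and between -0.09 and -0.07 in these types of the Lin-/CD11b+ sort. The 84 cytosolic ribosomal proteins, the larger class with such starts, had medians of -0.02, -0.08, -0.02 and -0.03 in the GMP sort. None of the 10 members was past 1.5-fold in these 8 comparisons.

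*Eif3f*, an eIF3 subunit, differed in the GMP sort but hardly in the Lin-/CD11b+ sort. Its level in early, mono-biased and neutro-biased progenitors and the basophil lineage was 498, 467, 461 and 510 CPM in the GMP control library, 564, 515, 482 and 491 CPM in the Lin-/CD11b+ control library, 514, 481, 476 and 465 CPM in the Lin-/CD11b+ KO library, and 348, 331, 341 and 353 CPM in the GMP KO library. The GMP KO library was below each of the other 3 in all 4 types. The GMP log2 ratios were -0.52 (interval -0.71 to -0.32), -0.50 (-0.56 to -0.44), -0.43 (-0.51 to -0.36) and -0.53 (-0.72 to -0.34), and the Lin-/CD11b+ ratios -0.13, -0.10, -0.02 and -0.08. The eIF3 subunits as a group did not follow, with medians between -0.07 and 0.06 in the GMP sort (the sum in early progenitors was -0.01, beside the median of 0.06), where 6 of 14 were above 0 in mono-biased progenitors. *Eif4b*, the helper of the eIF4A helicase, was also lower in the GMP KO library (log2 ratios -0.38, -0.38, -0.33 and -0.17) and had ratios above 0 in the Lin-/CD11b+ sort (0.07, 0.16, 0.18 and 0.50). *Eif3l* was lower in the KO library in early (-0.44) and neutro-biased progenitors (-0.47) and monocytes (-0.32 on the CPM + 1 scale) of the Lin-/CD11b+ sort.

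*Eif2s2* and *Eif5b* were higher in the KO library in all 4 types of the GMP sort. *Eif2s2*, the eIF2 subunit that meets eIF2B and eIF5, had 311 CPM in the control and 375 CPM in the KO library in early progenitors of the GMP sort, 325 and 445 CPM in mono-biased progenitors, 373 and 413 CPM in neutro-biased progenitors and 262 and 392 CPM in the basophil lineage. The log2 ratios were 0.27 (interval 0.06 to 0.48), 0.46 (0.39 to 0.52), 0.15 (0.07 to 0.22) and 0.58 (0.35 to 0.81). The Lin-/CD11b+ ratios were 0.04, 0.26 (0.17 to 0.34), -0.10 and 0.31, so neutro-biased progenitors did not share the direction. *Eif5b*, the GTPase of subunit joining, had 177 and 244 CPM in mono-biased progenitors of the GMP sort and 189 and 230 CPM in those of the Lin-/CD11b+ sort. Its log2 ratios in early, mono-biased and neutro-biased progenitors and the basophil lineage were 0.23, 0.46, 0.25 and 0.39 in the GMP sort and 0.10, 0.28, -0.06 and 0.44 in the Lin-/CD11b+ sort. Its ratio was above 0 in 11 of 12 comparisons, and that of *Eif3j1*, a loosely bound eIF3 subunit, likewise in 11 of 12. *Eif2s2*, *Eif1ax*, *Eif2b5* and *Eif4g2* were above 0 in 10 of 12, while *Eef1a1*, *Eef2* and *Eif2a*, a single-subunit carrier of initiator tRNA, were below 0 in 10 of 12. These counts rest on 4 libraries, and the comparisons within a sort share the mice. In mono-biased progenitors *Eif3j1* had ratios of 0.41 and 0.24 in the GMP and the Lin-/CD11b+ sort, and *Eif1a*, an eIF1A gene, of 0.41 and 0.36. *Eif4g1*, the main cap scaffold, had 67.3 and 90.3 CPM in early and 67.5 and 89.9 CPM in mono-biased progenitors of the Lin-/CD11b+ sort, log2 ratios of 0.42 and 0.41. In the GMP sort its control and KO levels in these types were close, with 85.2 and 95.1 CPM and 83.4 and 88.8 CPM.

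**Figure D5:**
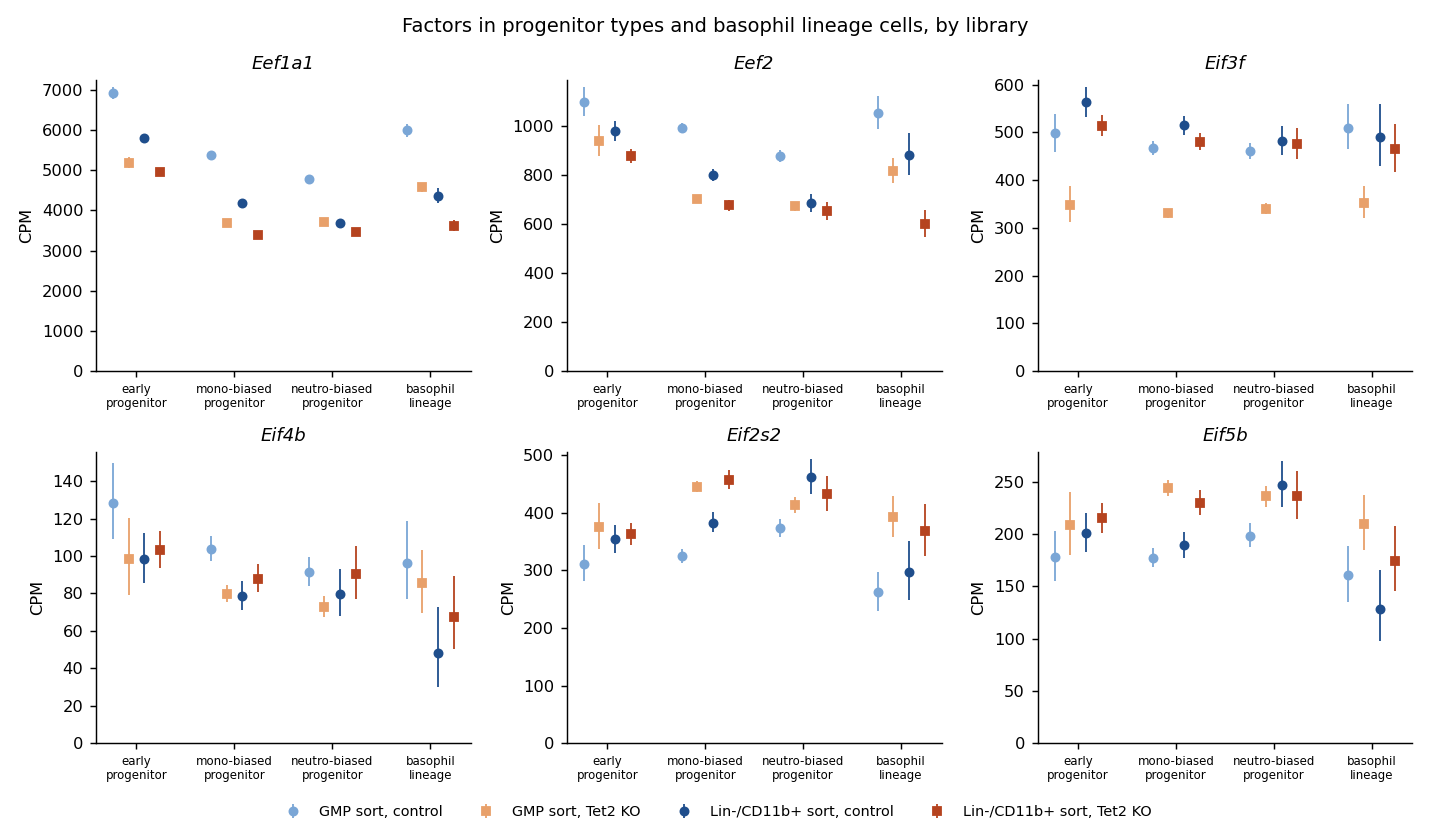
CPM (vertical axes, each from 0) of Eef1a1, Eef2, Eif3f, Eif4b, Eif2s2 and Eif5b in 3 progenitor types and the basophil lineage (horizontal axes) in the 4 libraries; points are libraries and bars exact 95% Poisson intervals. Eif3f sits between 331 and 353 CPM in the GMP KO library and between 461 and 564 CPM in the other 3, while Eef1a1 is lower in the KO library of each sort.

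By role, the sum of eEF1 was lower in the KO library in the 4 types of the GMP sort, with log2 ratios of -0.31 in early, -0.37 in mono-biased and -0.28 in neutro-biased progenitors and -0.25 in the basophil lineage. *Eef1a1* dominates this sum, and the median over the 5 eEF1 genes was 0.05 in the basophil lineage of this sort and 0.10 in mono-biased progenitors of the Lin-/CD11b+ sort, where the sum had -0.17. Among groups with few UMIs, eIF2B in the Lin-/CD11b+ sort had medians of 0.50 in the basophil lineage and 0.65 in plasma cells, the 3 eIF2 kinases compared had 0.39 in early progenitors, and the modifying enzymes had -0.35 in the basophil lineage. In mono-biased progenitors all 7 scanning factors had a ratio above 0 in the GMP sort (median log2 ratio 0.14) and 6 of 7 in the Lin-/CD11b+ sort (0.20). The eIF2B subunits, which recharge eIF2, had 4 of 5 above 0 in the GMP sort (0.18) and 2 of 5 in the Lin-/CD11b+ sort (-0.01). The eIF4 group had 6 of 11 above 0 in each sort, with medians of 0.01 and 0.03. In mono-biased progenitors of either sort 39 of 62 members were above 0. Fewer were in neutro-biased progenitors, with 15 of 62 in the GMP sort and 18 of 61 in the Lin-/CD11b+ sort. The scanning factors had 2 of 7 above 0 in both sorts there, with medians of -0.09 and -0.04 (their sum was level in the GMP sort, 0.0023), and the eIF3 subunits 2 of 14, with medians of -0.07 and -0.10. All genes had medians of -0.05 and -0.01 in neutro-biased progenitors, beside -0.09 and -0.08 for the members. In mono-biased progenitors all genes had -0.02 and 0.04, beside 0.07 and 0.05 for the members. The members of the Lin-/CD11b+ sort thus stood near all genes in that type. The share of all genes above 0 was not counted.

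The windows around the annotated starts of 4 of these genes are shown because the literature groups elongation factor mRNAs by a pyrimidine run at the 5′ end. Each runs from 40 bases before to 20 bases after the RefSeq start in GRCm38.p6, is read in the direction of transcription, and has in capitals the run of C followed by at least 4 C or T that begins within 10 bases of that start. *Eef1a1* is from chr9:78481705-78481764 (minus strand), *Eef2* from chr10:81176591-81176650 (plus), *Eif3f* from chr7:108934375-108934434 (plus) and *Eif2s2* from chr2:154892887-154892946 (minus).
Eef1a1: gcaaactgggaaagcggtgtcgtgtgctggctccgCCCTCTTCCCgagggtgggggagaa
Eef2: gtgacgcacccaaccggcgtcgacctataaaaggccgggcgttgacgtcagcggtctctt
Eif3f: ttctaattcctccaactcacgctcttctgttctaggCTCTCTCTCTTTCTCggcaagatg
Eif2s2: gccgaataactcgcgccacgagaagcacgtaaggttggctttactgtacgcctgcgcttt
*Eef1a1* and *Eif3f*, both lower in the GMP KO library, held a run near the start. These runs begin before the annotated start, at offsets of -5 and -4 bases. Whether they lie at the 5′ end of the mRNAs, and any link to the KO level, was not tested. *Eef2*, also lower, and *Eif2s2*, higher, held none that begins within 10 bases of it. The *Eef2* window has a run of this kind further on, at its very end, and an annotated start can lie some bases from the start that a cell uses. Of the 50 members with a start in the table, 17 (34.0%) held such a run, against 9297 of 27025 genes (34.4%). The share was 3 of 6 among the members with a terminal oligopyrimidine start by textbook knowledge and 14 of 44 (31.8%) among the others.

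The interferon-stimulated kinase *Eif2ak2* had 10.7 and 14.3 CPM in the control and KO library in mono-biased progenitors of the GMP sort and 10.3 and 14.9 CPM in those of the Lin-/CD11b+ sort, log2 ratios of 0.42 (interval 0.07 to 0.78) and 0.53 (0.02 to 1.05) respectively. In neutro-biased progenitors it had 9.79 and 17.3 CPM in the GMP sort, a ratio of 0.82 (0.37 to 1.28), and 15.2 and 17.3 CPM in the Lin-/CD11b+ sort, a ratio of 0.18. In early progenitors the GMP values were 15.1 and 12.8 CPM and the Lin-/CD11b+ values 17.9 and 23.8 CPM. The 15 interferon-stimulated genes listed moved beside it, with medians over those with enough UMIs of -0.06 in early, 0.33 in mono-biased and 0.15 in neutro-biased progenitors of the GMP sort, and of 1.01, 0.51 and 0.20 in the Lin-/CD11b+ sort. Their part in the level of *Eif2ak2* was not tested. *Eif2ak4* had 6.28 and 12.6 CPM in early progenitors of the Lin-/CD11b+ sort, a log2 ratio of 1.01 (0.13 to 1.97). In monocytes it rested on 2 UMIs in the control and 23 in the KO library, a ratio of 2.41 with an interval from 0.39 to 5.53. *Eif2s3x*, the X-linked gamma subunit of eIF2, had ratios of 0.36, 0.28 and 0.53 in early, mono-biased and neutro-biased progenitors of the Lin-/CD11b+ sort and of -0.46, 0.02 and -0.08 in the GMP sort. *Xist*, transcribed from the inactive X chromosome of female cells, was at 1029 to 1309 CPM in all 4 libraries.

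In neutrophils the sum of the members was 5851 CPM in the control and 7653 CPM in the KO library. 20 of 58 members were higher by more than 1.5-fold and 0 lower, a share close to the background of 33.8% of genes in either direction. The median log2 ratio was 0.44, against 0.35 for all genes. *Eef1a1* had 787 and 1275 CPM (log2 ratio 0.70, interval 0.60 to 0.80), *Eef1g* 114 and 188 CPM (0.72, 0.47 to 0.99), *Eef1b2* 190 and 319 CPM (0.75, 0.55 to 0.95) and *Eif4g2*, a scaffold used without the cap, 92.4 and 151 CPM (0.71). *Eif1* hardly differed, with 1136 and 1096 CPM. *Eif2b3*, an eIF2B subunit, had 0 UMIs in the control and 20 in the KO library, which was at least 4.81-fold higher against a floor of 3 UMIs in the control. Markers of less mature cells and of plasma cells moved with these values. The primary granule genes *Mpo*, *Elane*, *Prtn3* and *Ctsg* together had 939 CPM in the control and 3726 CPM in the KO neutrophils, the ribosomal proteins 100179 and 150808 CPM, and *S100a8* with *S100a9* 311972 and 245938 CPM. Immunoglobulin genes with *Jchain* had 15017 and 5296 CPM, and 10 of the 12 with enough UMIs were lower by more than 1.5-fold. Their part in the result was not tested. Among neutrophils with fewer than 5 UMIs of primary granule genes the log2 ratio of the sum was 0.24, and with the 50 most abundant other genes left out of the total it was 0.05.

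Other genes of protein synthesis gave these medians of the log2 ratio in mono-biased progenitors, the gate with the most cells. The 22 cytosolic aminoacyl-tRNA synthetases, which charge the tRNAs, had 0.11 in the GMP and 0.14 in the Lin-/CD11b+ sort, with 17 and 20 of 22 above 0. The mitochondrial ribosome had 0.17 and 0.13, with 72 of 78 and 65 of 77 above 0, and the mitochondrial translation factors 0.05 and 0.10. The integrated stress response targets, which answer to eIF2 kinases, had 0.09 and 0.11, and the mTOR pathway genes -0.03 and 0.07. The proliferation genes had -0.10 and -0.07, and the genes of poly(A) binding and termination 0.12 and 0.23. For some lists the sum went against the median: that of poly(A) binding and termination had -0.12 (interval -0.16 to -0.09) in the GMP sort, and that of the mTOR pathway -0.13 (-0.16 to -0.11) in the Lin-/CD11b+ sort. The mTOR pathway list includes *Rps6*, which is also 1 of the cytosolic ribosomal proteins, and its part in that sum was not separated. The median of all genes was -0.02 in the GMP and 0.04 in the Lin-/CD11b+ sort. The share of all genes above 0 was not counted, so the counts above 0 in these lists have no background. In each of these lists at most 2 genes were past 1.5-fold in mono-biased progenitors. The background there was 4.53% of genes in the GMP and 7.83% in the Lin-/CD11b+ sort. Past the fold were 1 of 13 stress response targets and 1 of 78 mitochondrial ribosome genes in the GMP sort. In the Lin-/CD11b+ sort they were 1 of 12 stress response targets, 1 of 22 synthetases and 2 of 16 mTOR pathway genes.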

How the data were processed

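Per the file headers and the study's methods, the table the authors deposited holds whole-number UMI counts for genes by cells, not normalized, and a second table names each cell's library. The study's own list of cell numbers has those of the GMP KO and the Lin-/CD11b+ control library exchanged against this table. The table was used: the library it calls GMP KO held 0 plasma cells and 2 neutrophils, and the one it calls Lin-/CD11b+ control 152 and 159. Reads were counted with Cell Ranger 3.1.0 and cells handled in Seurat, with mm10 named, per the submitters' processing notes. The limits in the methods are 200 genes and 5000 UMIs as minimums and 5% as the mitochondrial maximum, and 116, 180, 44 and 73 cells at or over the last limit are in the GMP control, GMP KO, Lin-/CD11b+ control and Lin-/CD11b+ KO libraries. The kit is given as v2 in the protocol and as a later version in the design text. Cell Ranger counts reads that map to 1 place, so close copies and pseudogenes can lower a factor's count.

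Cells were thinned to 5000 UMIs and gated on markers, in order: neutrophils (at least 200 UMIs of *S100a8* and *S100a9*), plasma cells, basophil lineage, lymphoid cells, dendritic cells, plasmacytoid lineage, early progenitors, monocytes, mono-biased progenitors and neutro-biased progenitors. The gating rule was chosen after marker levels were seen, and the members, roles and lists were chosen with earlier results of these data known. Untouched UMIs were then summed per library and type and scaled to CPM. Levels have exact Poisson intervals and ratios exact conditional binomial intervals, at 95%. A type was compared if each library held 50 of its cells or more, and a gene if both together held 20 UMIs or more. Counts of members used a 1.5-fold limit on CPM + 1, a scale that understates the change of genes with few counts. Medians of lists are on the same scale, and intervals belong to ratios of CPM. The floor was 3 UMIs. With 1 library per group no test was made.

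Named were the 10 most abundant members, the 3 highest and 3 lowest ratios in each type among members with at least 100 UMIs and the same direction in the other sort, of which those that a statement needed are given, the 5 widest and 5 narrowest ranges over types, the regulators and alternative forms, and the 5 genes most like the sum. *Eif4b*, *Eif2ak4*, *Eif3j1* in the GMP sort, *Eif2b3* and *Eif4g2* in neutrophils and other members past 1.5-fold were added after their values were seen. Doublets were kept, because Scrublet called only 0.346% of cells and so did not work here. Alternatives were Leiden clusters (2000 variable genes, 30 components, 30 neighbours, resolution 0.8) named by the same markers, TMM factors, totals without mitochondrial and ribosomal protein genes, means over cells, no *Eef1a1*, no cells at or over 5% mitochondrial UMIs, no cells in the highest 5% of Scrublet scores, the other sort and thinned cells, and, chosen after seeing the data, totals without the 50 most abundant other genes and neutrophils with few primary granule UMIs. Promoters and positions are from RefSeq (GRCm38.p6). The intervals were tried only on simulated Poisson counts, which hold counting error and no spread between cells or mice. Used were Python 3.11.15, numpy 2.4.6, scipy 1.17.1, pandas 2.3.3, scanpy 1.11.5, leidenalg 0.10.2, scikit-learn 1.9.0, matplotlib 3.10.9, R 4.3.3 and edgeR 4.0.16 (TMM only), with seed 1.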

Additional observations from a re-analysis of the deposited data

Results flagged for a closer look

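*Eef1g* and *Eif4a1* had log2 ratios of *Tet2* KO over control that pointed in opposite directions in the 2 sorts, with intervals on either side of 0. For *Eef1g* in mono-biased progenitors the GMP libraries gave -0.079 (interval -0.11 to -0.044) whereas the Lin-/CD11b+ libraries gave 0.11 (0.048 to 0.16). For *Eif4a1* in early progenitors the GMP libraries gave 0.12 (0.0017 to 0.24) and the Lin-/CD11b+ libraries -0.26 (-0.34 to -0.18). With 1 library per genotype and sort, the difference between sorts was not tested.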

How the results depend on the processing

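For the progenitor gates the alternatives were run on the GMP sort, and for neutrophils, monocytes and plasma cells on the Lin-/CD11b+ sort. Run so, the log2 ratios of the summed members between genotypes kept their sign in early, mono-biased and neutro-biased progenitors and neutrophils. The size moved beyond the counting interval in several. In mono-biased progenitors of the GMP sort without *Eef1a1*, the interval covers 0 (-0.015 to 0.0044). In those of the Lin-/CD11b+ sort the sign turned without *Eef1a1*, from -0.045 to 0.028 (interval 0.013 to 0.043). In early progenitors (-0.16) the ratio was -0.060 without *Eef1a1*, -0.12 in the other sort and -0.19 with thinned cells. In mono-biased progenitors (-0.13) it was -0.0054 without *Eef1a1*, -0.045 in the other sort, -0.12 with TMM factors, -0.18 without mitochondrial and ribosomal protein genes in the total and -0.15 without the 50 most abundant other genes. In neutro-biased progenitors (-0.16) it was -0.10 without *Eef1a1*, -0.079 in the other sort, -0.12 with TMM factors, -0.15 without the 50 most abundant other genes and -0.14 with clusters. In monocytes (-0.04) it was -0.085 with TMM factors and -0.064 without mitochondrial and ribosomal protein genes, and 0.011, in the other direction, without *Eef1a1*. In neutrophils (0.39) it was 0.16 with clusters, 0.033 with TMM factors, 0.48 without mitochondrial and ribosomal protein genes, 0.33 without *Eef1a1*, 0.047 without the 50 most abundant other genes and 0.24 in cells with few primary granule UMIs. In plasma cells (0.11) it was -0.051 with TMM factors and -0.093 without the 50 most abundant genes. The summed level over early progenitors in the control stayed below 0. Without mitochondrial and ribosomal protein genes in the total it was -0.71 in monocytes, -2.47 in neutrophils and -2.62 in plasma cells, without *Eef1a1* -0.38, -1.51 and -1.82, and without the 50 most abundant other genes -0.50, -0.94 and -0.29. The mean over cells gave -1.86 in neutrophils and -2.01 in plasma cells, and clusters -1.74 in plasma cells. The cause of these moves was not tested beyond what each total leaves out. Of 192 values for single members under alternatives, 44 moved beyond their counting interval. The sign changed in 7 of 72 with clusters and in 2 of 72 with TMM factors, and in 0 of 48 in the other sort, where the choice of these members had required the same direction.

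With 1 library per genotype and sort, no spread between mice is known and no library can be left out. No paired analysis was possible because the groups compared share 1 replicate number and the results come from no test. Members under 20 UMIs in a comparison were not compared, and depth limits *Eif4ebp3*, *Eef1akmt3* and *Eif5a2* in every type.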
